A study of Gallus gallus with 16 samples.

Results

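In chick vagal neural crest that had been electroporated with both sox10 guide plasmids, 66 autosomal genes were low in all 3 libraries while staying higher in each of the 13 libraries of the other groups. They are 66 of 24881 features in the deposited table, 17717 of which are autosomal. Each was chosen by its measured level, in CPM, the read count scaled to a fixed library total. The score is log2 of the lowest CPM among the 13 other libraries over the highest CPM among the 3 sox10 libraries, with 0.5 added to both. A member has a score of at least 0.5, and its tfap2b and dko means each lie within 2-fold of the cas9 mean. All 66 genes that met the rule are described, since the limit of 150 was not reached. Because the low sox10 level made these genes members, every sox10 value below is a description and supports nothing. With TMM-scaled values in place of library totals the rule found 57 genes, and 42 of the 66 were among them.

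Neural crest cells delaminate from the dorsal neural tube of the embryo and migrate widely, and those of the vagal level give rise to enteric neurons and glia and populate the outflow tract of the heart. SOX10 is an HMG-box transcription factor of migrating neural crest, known for its role in glial, melanocyte and enteric nervous system development. TFAP2B is an AP-2 family transcription factor, SOX3 a SoxB1 factor known from neural progenitors, and MSX1 a homeobox factor of the neural plate border.

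All embryos were wild-type chick at Hamburger and Hamilton stage 18 and carried a plasmid that expresses Cas9 and the fluorescent protein Citrine from the pCAG promoter. Citrine-positive cells of the vagal region were sorted, although the RNA extraction text in the labels names dissected dorsal neural tubes. The editing reached in each library was not analysed here. The sox10 group (3 libraries) received 2 guide plasmids, sox10_g1 and sox10_g2. The tfap2b group (3 libraries) received tfap2b_g1 and tfap2b_g2. The dko group (3 libraries) received both tfap2b guides and sox10_g1, but not sox10_g2. The sox3 group (2 libraries) received 2 guide plasmids, the msx1 group (3 libraries) received 1, and the cas9 control (2 libraries) received none. Nothing in the labels states that replicate libraries are separate embryos or cultures. The p-values therefore cover the spread among the libraries at hand, and that spread may be technical.

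The gene IDs are not paired with symbols in the files, and the reference table matched 0 of them, so members are given by ID or by galGal5 position and rank by score, without function or sequence. Neither the targeted genes nor markers of neural crest or other cell types were analysed here for the same reason. No source used here states whether the counting was strand-specific, and for that reason the 15 members whose span overlaps another feature are uncertain, and 51 overlap none.

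The sox10 libraries differed from the rest in more than these genes. They held 9112556 to 10263454 counts, within the range of 5721022 to 24929531 over the 13 others. At an equal depth of 5721022 counts, 12613 to 12858 genes would have a count in the sox10 libraries, against 13197 to 14908 in the others. The 100 most abundant genes took 19.2% to 19.9% of sox10 counts and 12.0% to 17.8% of counts in the others. TMM scaling, which sets most genes level between libraries, placed the sox10 group 0.52 higher against cas9 on the log2 scale than column totals do, 0.51 higher against sox3, 0.62 against msx1, 0.26 against dko and 0.16 against tfap2b. Both sox3 libraries, msx1 replicates 1 and 2, and both cas9 libraries lay closer to each other (correlations of 0.986, 0.982 and 0.989 over 9620 genes) than other pairs within a group (0.863 to 0.963), although they differed beyond sampling noise and were kept as separate samples. Over the same genes, the sox10 libraries correlated with each other at 0.863 to 0.896. Their correlations with tfap2b (0.875 to 0.920) and dko libraries (0.850 to 0.914) overlapped that range, and those with cas9 were 0.618 to 0.675. For sox10 replicate 2 every tfap2b and dko value (0.913 to 0.920) lay above its values within the group (0.881 and 0.896). For replicate 1 they were 0.858 to 0.876, against 0.863 and 0.881 within the group. For replicate 3 they were 0.850 to 0.913, against 0.863 and 0.896. The part that the narrower transcript range of the sox10 libraries plays in the members' levels was not tested. In these bulk samples, fewer cells of a type and less RNA per cell cannot be told apart.

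**Figure D1:**
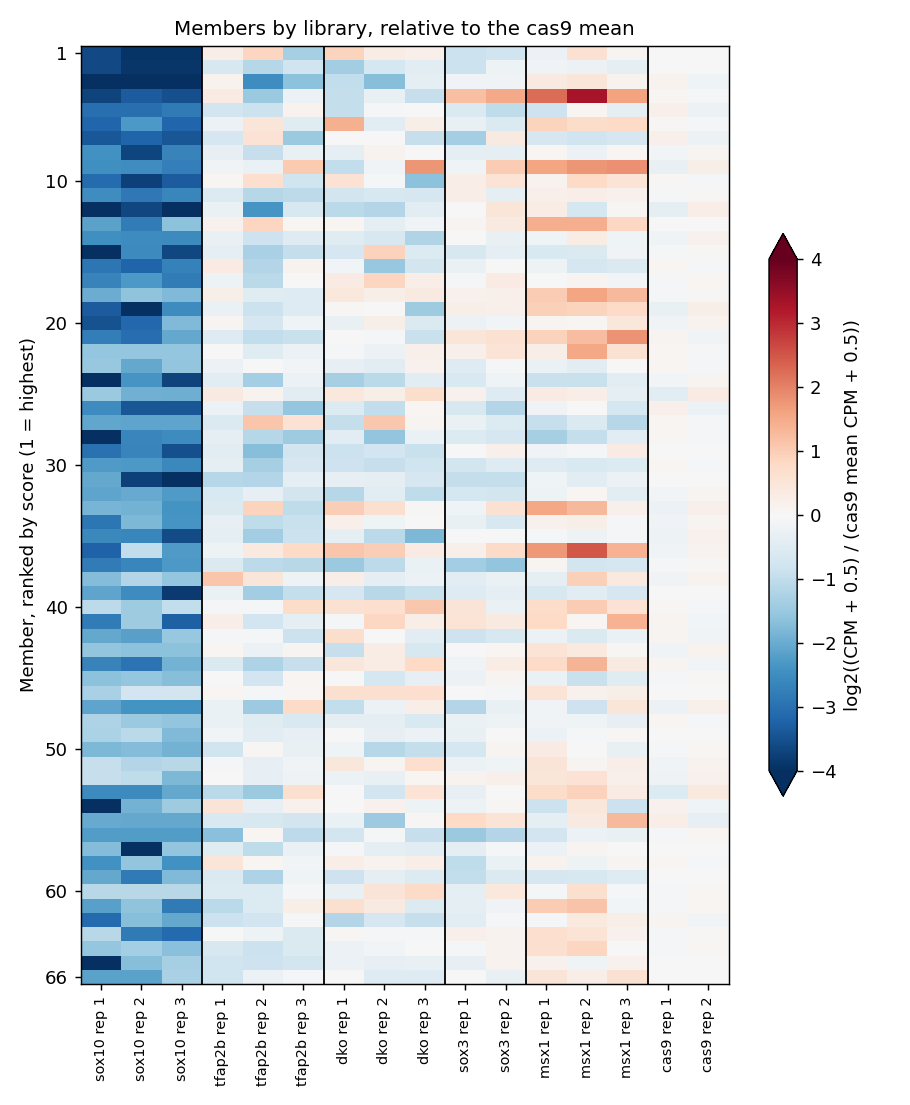
Each row is a member, ranked by score from the top, and each column a library. Colour gives log2 of CPM + 0.5 over the cas9 mean CPM + 0.5, and values beyond 4 in either direction take the end colour. The 3 sox10 columns at the left are blue in every row, which the rule required, while the other columns vary around white, with the strongest red for msx1 replicate 2 in the member ranked 4.

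The median member stood at 0.823, 1.76 and 1.46 CPM in sox10 replicates 1, 2 and 3, against 10.8 and 12.0 CPM in the cas9 libraries. The medians over members were 8.03 to 10.3 CPM in the tfap2b libraries, 10.99 to 11.9 in the dko libraries, 10.7 and 13.7 in the sox3 libraries and 12.7 to 15.0 in the msx1 libraries. Summed over the 66 members, the sox10 libraries held 595 to 649 CPM, against 2591 and 2620 CPM for cas9. The sums lean on abundant members: the member ranked 30 alone held 113 to 141 CPM in sox10 and 711 and 640 CPM in cas9. The lowest sum outside the sox10 group was 1492 CPM, in tfap2b replicate 2, and the highest 2730 CPM, in msx1 replicate 2.

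The depth of the loss ranged widely. The sox10 mean was 0.130 of the cas9 mean for the median member, with a middle range from 0.0400 to 0.214. It was below 0.1 for 28 members, from 0.1 to below 0.25 for 26, and 0.25 or more for 12. These ratios use column totals. TMM scaling places sox10 0.52 higher against cas9 on the log2 scale, which makes the loss shallower. Scores ran from 0.510 to 2.30, and 42 of the 66 lay below 1. At the edge of the rule, the member on chromosome 15 at 10833503 to 10834474 had a score of 0.510, with at most 0.390 CPM in sox10 and at least 0.767 CPM elsewhere. Just outside it, a gene on chromosome 4 at 23589759 to 23789476 had a score of 0.478, with at most 18.5 CPM in sox10 and at least 26.0 CPM elsewhere.

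In 4 members no sox10 library held a count, and in 8 more the 3 libraries together held 1 to 3. The highest score belonged to ENSGALG00000004930, a single-exon gene on chromosome 12 (4372953 to 4374377, 1425 bases). It had 0.110, 0 and 0 CPM in the sox10 libraries, which is 1 count in all, against 6.92 and 7.09 CPM in cas9. The cas9 level was 206 times the sox10 level from pooled counts, with a 95% exact interval of 36.6 to 8147 that covers counting error only. It stood at 8.44, 13.1 and 2.51 CPM in the tfap2b libraries and at 13.5, 8.67 and 8.06 CPM in the dko libraries. The sox3 libraries had 3.64 and 3.81 CPM and the msx1 libraries 5.94, 10.8 and 7.66 CPM. All 3 dko libraries thus lay above both controls, while the tfap2b libraries spread on both sides of them.

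ENSGALG00000037321, on chromosome 1 (77758628 to 77759108, 2 exons, 443 exonic bases), also had 1 sox10 count in all. Its sox10 libraries stood at 0.110, 0 and 0 CPM, against 7.08 and 6.86 CPM in cas9, a pooled cas9 to sox10 ratio of 204 (95% exact interval 36.4 to 8091). The tfap2b libraries had 4.25, 2.89 and 3.77 CPM, the dko libraries 2.37, 4.14 and 4.91, the sox3 libraries 3.64 and 5.95, and the msx1 libraries 6.29, 5.85 and 5.17. Every library with guides was below both controls for this gene. The member ranked 3, on chromosome 15 (8402897 to 8419021, 12 exons), had 0 counts in sox10, against 10.5 and 8.35 CPM in cas9, which makes cas9 at least 91.6-fold higher when sox10 is set to 3 counts over its 3 libraries. Its tfap2b libraries were uneven, at 10.4, 1.29 and 2.69 CPM.

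The other 3 members at 0 sox10 counts were thin everywhere. They were at 0.228 to 3.77 CPM in the other 13 libraries, and cas9 was at least 5.65-fold, 9.18-fold and 18.1-fold higher by the same reckoning. Such members are limited by depth: 3 counts are 0.292 to 0.329 CPM in the sox10 libraries, and 4 members had a lowest other level under 0.5 CPM. In 54 members, however, each of the 13 other libraries had at least 1 CPM.

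At the other end were members with a partial loss and many counts. The member ranked 8, on chromosome 5 (49590790 to 49622911, 3 exons), had 4.28, 1.51 and 3.51 CPM in sox10 and 22.9 and 26.8 CPM in cas9. Its tfap2b libraries had 19.6, 12.8 and 20.4 CPM, its dko libraries 19.2, 27.3 and 24.9, its sox3 libraries 18.7 and 19.3, and its msx1 libraries 26.4, 21.1 and 26.5. Here the dko, msx1 and cas9 levels overlapped.

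The member ranked 11, on chromosome 26 (1608779 to 1626550, 7 exons), was graded across groups. It had 11.3, 8.55 and 10.3 CPM in sox10, 44.9, 29.2 and 31.1 in tfap2b, 38.6, 41.4 and 41.1 in dko, 79.3 and 50.2 in sox3, 75.7, 78.0 and 74.2 in msx1, and 62.8 and 67.8 in cas9. The tfap2b and dko libraries lay between sox10 and cas9 without overlapping either. The member ranked 30, on chromosome 13 (12919261 to 12927487, 12 exons, overlapping another feature and uncertain), had the highest CPM of all members: 141, 136 and 113 CPM in sox10 against 711 and 640 CPM in cas9. Its dko libraries, at 384, 359 and 386 CPM, and its tfap2b libraries, at 531, 271 and 427 CPM, were below both controls as well.

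**Figure D2:**
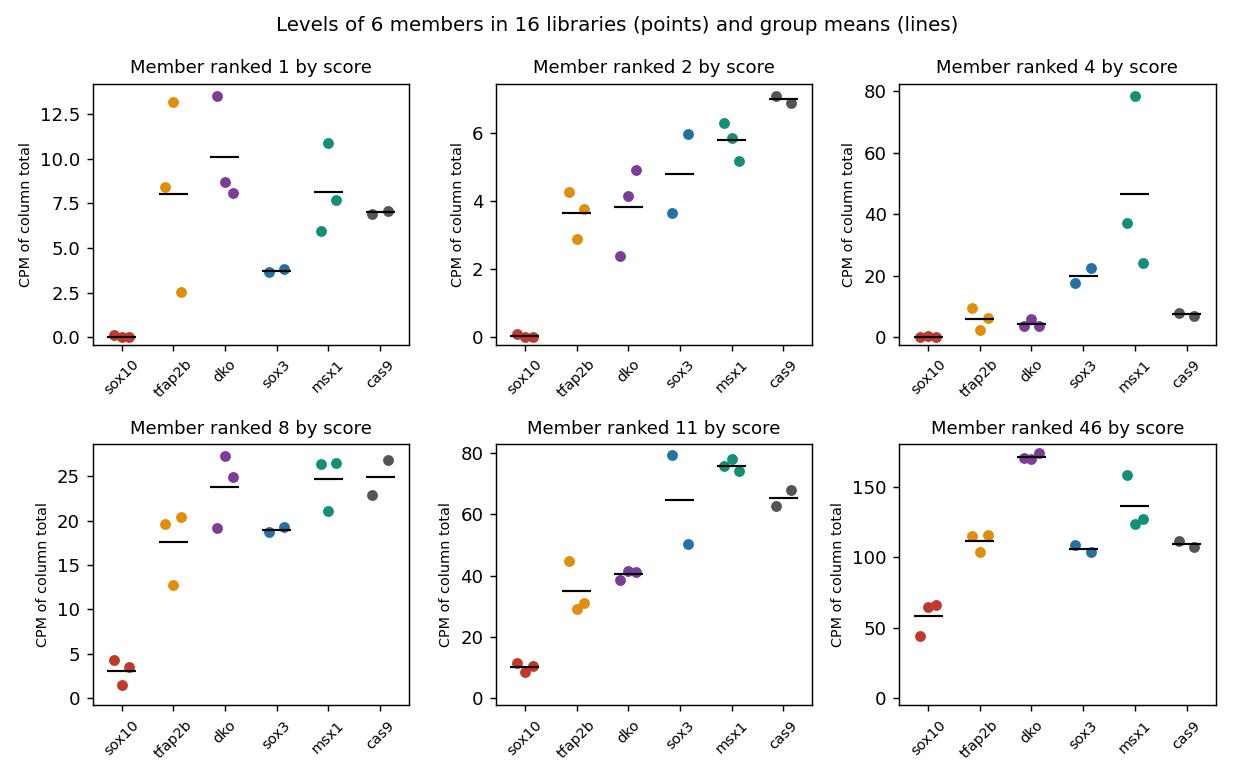
CPM of the library total for the members ranked 1, 2, 4, 8, 11 and 46 by score, with a point per library and a line at each group mean, from sox10 at the left to cas9 at the right. The sox10 points are the lowest in every panel; the dko points of the member ranked 46 (170 to 174 CPM) lie above the cas9 points (107 and 111 CPM), and those of the member ranked 11 (38.6 to 41.4 CPM) below them (62.8 and 67.8 CPM).

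The 3 sox10 libraries did not always share a level. In 22 members at least 1 of them was at 0. Among the 31 members with at least 10 counts in each sox10 library, the highest was 1.62 times the lowest in the median and 10.0 times at most, and 13 stayed within 1.5-fold. The member ranked 14, on chromosome 1 (137351599 to 137382930, 13 exons), was nearly level across the 3, at 6.91, 6.54 and 6.43 CPM, against 34.9 and 44.7 CPM in cas9. By contrast, the member ranked 65, on chromosome 22 (1201009 to 1207911, 12 exons), had 0, 16.2 and 21.1 CPM in sox10, against 53.4 and 55.3 CPM in cas9. The member ranked 31, on chromosome 2 (41282455 to 41284188, single-exon), had 8.12, 2.21 and 0 CPM in sox10 and 35.8 and 35.0 in cas9. Members at 0 were spread evenly over the libraries, with 12 in replicate 1, 13 in replicate 2 and 13 in replicate 3.

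By edgeR's quasi-likelihood test over all 14081 genes tested (Benjamini-Hochberg adjusted p under 0.05), 58 of the 66 members, all of which passed the expression filter, were lower in sox10 than in cas9, where 26.6% of all genes were. The rule used this contrast, so the count supports nothing. The median log2 fold change of members was -2.44 (range -9.88 to -0.39), and that of all genes tested -0.31. Against tfap2b 40 members were lower, where 1.92% of all genes were, with a median of -2.35 for members and 0.00 for all genes. Against dko 56 were lower (6.15% of all genes), against sox3 48 (21.6%) and against msx1 60 (26.3%). The rule used all 5 contrasts, and they share the sox10 libraries. In this fit 33 members were lower in all 5, as 1.33% of all genes were, and 3 in none, as 66.8% of all genes were. With the 2 groups fitted alone, 27 of 64 members tested were lower than in cas9 (33.6% of all genes were called in either direction). In the same kind of fit, 0 of 59 members tested were lower than in tfap2b (0% of all genes). DESeq2 called 63 against tfap2b (9.47%). With the close pairs summed to 1 library each, 36 members were lower than in cas9 (24.7% of all genes in either direction) and 2 than in tfap2b (0.0548%). Without tfap2b replicate 1 or 3, 22 or 25 members were lower than in tfap2b (0.799% or 1.12% of all genes in either direction).

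The level in a sox10 library left out of the choice was not itself used, but the 13 other libraries it is set against were chosen to be high. The shares below are therefore partly fixed by the rule, are not matched by the unselected genes beside them, and are a description. When members were chosen with replicates 2 and 3, 140 genes met the rule, and replicate 1 lay below all 13 other libraries in 85 of them (60.7%). Over all 10928 autosomal genes with a count in all 13, replicate 1 did so in 29.1%. With replicate 2 left out, 118 of 235 chosen genes (50.2%) were below all 13 in it, against 19.5% of all. With replicate 3 left out, 84 of 144 (58.3%) were, against 31.1%. A choice on any pair of sox10 libraries therefore also took many genes that the library left out did not place lowest.

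**Figure D3:**
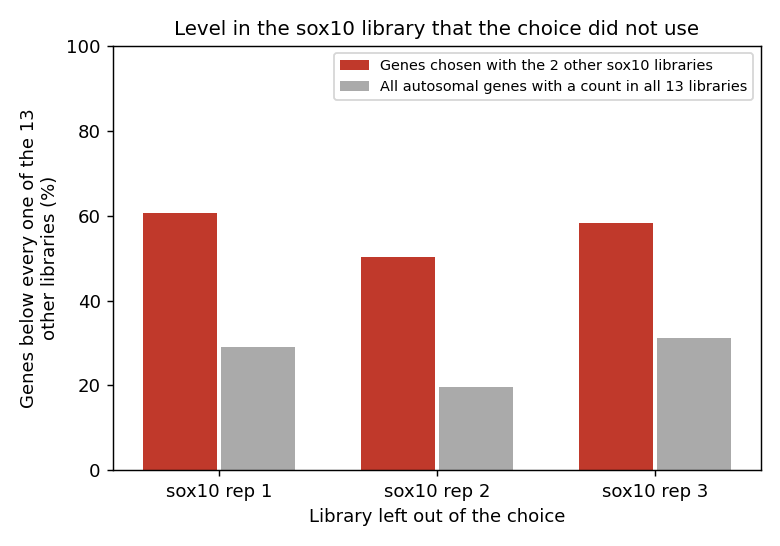
Bars give the percentage of genes whose CPM in the left-out sox10 library was below each of the 13 other libraries, for genes chosen with the remaining pair (red) and for 10928 autosomal genes not chosen for high levels in the 13 (grey), so the gap is partly set by the rule. The red bars stand at 60.7%, 50.2% and 58.3% and the grey bars at 29.1%, 19.5% and 31.1%.

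On the other side, the 3 sox10 libraries that a left-out library is set against were chosen to be low, so these shares too are largely set by the rule. Leaving out a library there gave 90.1% to 100% of chosen genes above all 3 sox10 libraries for 12 of the 13, where a smaller share of all genes was: 38.3% and 31.3% for tfap2b replicates 1 and 3, 37.1%, 39.9% and 35.7% for dko, 51.3% and 53.8% for sox3, 52.9%, 56.5% and 55.2% for msx1, and 52.6% and 54.3% for cas9. The exception was tfap2b replicate 2: of 165 genes chosen without it, 112 (67.9%) were above the sox10 libraries in it, where 25.3% of all genes were. This library also set the limit most often. The lowest of the 13 other levels lay in tfap2b replicate 2 for 29 of the 66 members, in any tfap2b library for 40 (60.6%), in dko for 15, in sox3 for 8, in msx1 for 3 and in cas9 for 0. Over all 10928 genes the lowest level lay in a tfap2b library in 42.8%.

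The 2-fold bounds removed most genes that passed the score. Before them, 185 autosomal genes had a score of at least 0.5. They removed 119, of which 103 had a tfap2b or dko mean below 0.5 of the cas9 mean, 75 of them in both groups, and 16 had a mean in either group more than 2-fold above cas9. The same score applied to the other groups of 3 libraries found 2 autosomal genes for tfap2b, 2 for dko and 7 for msx1, against the 185 for sox10. With the sox10 libraries set aside, it found 76 for tfap2b, 36 for dko and 7 for msx1.

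The rule bounded the tfap2b and dko means, so their levels against cas9 are a description. By column totals the tfap2b mean was below the cas9 mean in 53 of 66 members (median ratio 0.757) and the dko mean in 45 (median ratio 0.850). With TMM scaling these counts were 37 and 33, and the median ratios 0.968 and 1.02, so the direction of the dko median depends on the scaling. DESeq2 called 0 members in tfap2b against cas9, and 44.1% of all genes. In edgeR's fit 0 members were called in that comparison, where 38.6% of all genes were. An unadjusted p under 0.05 was found there for 1 member, and the share of all genes at that cutoff is not given. In dko against cas9 4 were called, where 37.2% of all genes were, and 0 with the close pairs summed, where 13.7% were. The bounds limit how far tfap2b and dko members can lie from cas9, so nothing is read from these counts.

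Of these 4, 3 were higher in dko (17.1% of all genes were) and 1 lower (20.2%). The member ranked 46, on chromosome 3 (105652613 to 105656093, 6 exons), had 171, 170 and 174 CPM in dko, 44.2, 64.5 and 65.9 CPM in sox10, 104 to 116 CPM in tfap2b, and 111 and 107 CPM in cas9. Its log2 fold change was 0.91 (SE 0.22) in dko against cas9 and -0.39 (SE 0.21) in sox10 against cas9. The dko libraries were the highest and the sox10 libraries the lowest of all 16. The member ranked 51, on chromosome 2 (56104804 to 56137792, 9 exons), had 168, 134 and 198 CPM in dko, 65.3, 54.9 and 57.1 in sox10 and 111 and 136 in cas9. The member ranked 40, on chromosome 3 (87685181 to 87738505, 7 exons), had 26.7, 27.6 and 36.6 CPM in dko, 8.12, 6.04 and 8.48 in sox10 and 17.7 and 16.7 in cas9. The lower call was of the member ranked 30. None of the 3 higher ones was called in sox10 against cas9. The choice of these 4 was made after seeing their values.

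The dko libraries lay above both cas9 libraries in 8 members, or 12.1%, where they did so in 28.7% of the 10928 autosomal genes. The 3 tfap2b libraries did so in 1 member, where 25.3% of those genes did. With TMM scaling the counts were 14 members for dko, where 35% of those genes did so, and 6 for tfap2b, where 32.9% did. That member, ranked 13, on chromosome 2 (131784819 to 131949415), had 20.6, 33.4 and 19.2 CPM in tfap2b and 3.73, 2.21 and 5.55 CPM in sox10, against 18.4 and 18.1 CPM in cas9. The member ranked 36, on chromosome 2 (3971607 to 3992312), had the highest dko to cas9 ratio, 1.90. It had 9.86, 8.99 and 5.45 CPM in dko, 0, 1.91 and 0.487 CPM in sox10, and 3.72 and 4.79 CPM in cas9. By column totals all dko libraries lay below both cas9 libraries in 24 members, and all tfap2b libraries in 25. With TMM scaling these counts were 11 and 12. The shares of all genes that did so are not given here, and nothing is read from these counts.

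**Figure D4:**
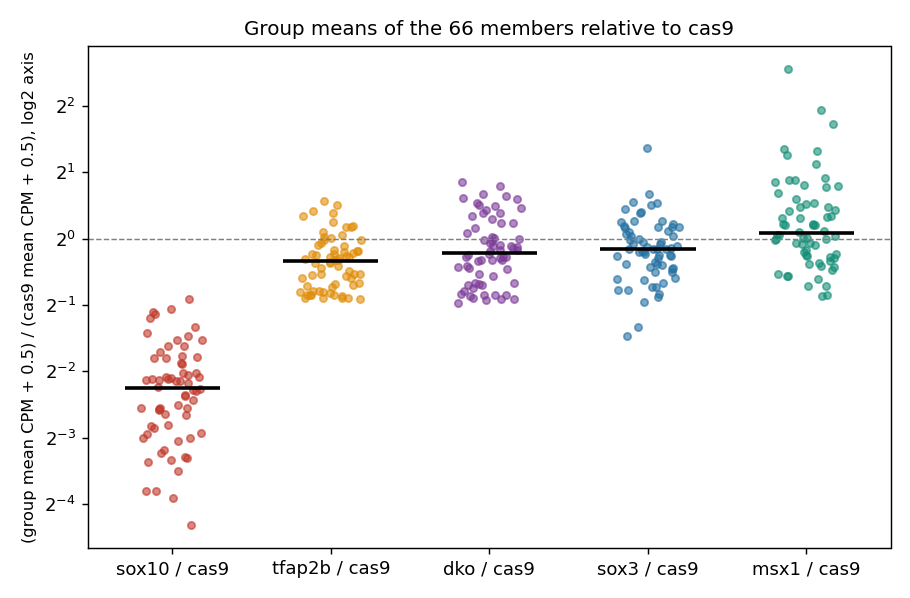
Each point is a member, and its height the group mean CPM + 0.5 over the cas9 mean CPM + 0.5 on a log2 axis; black lines are medians and the dashed line marks equality with cas9. All sox10 points lie below 1, the tfap2b and dko points lie between the bounds of the rule, the sox3 points reach further both up and down, and the msx1 points further up.

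The sox3 and msx1 groups entered the rule through a floor alone, which left their levels above it free. The floor kept out genes near or below the sox10 level in either group, and the rule used the cas9 libraries too. The counts below are therefore partly set by the rule. In sox3 against cas9, 0 members passed edgeR's test, where 0.646% of all genes were called. DESeq2 also called 0 members, and 2.54% of all genes. In edgeR's fit 3 members had an unadjusted p under 0.05, and the share of all genes at that cutoff is not given. The median log2 fold change of members was -0.16, and that of all genes -0.07. In msx1 against cas9, 1 member was called, where 2.83% of all genes were (1.07% higher, the direction of the member), at a median of -0.01 for members and -0.05 for all genes. With the 2 groups fitted alone, 9 members were called in sox3 against cas9, where 32.3% of all genes were, and 11 in msx1 against cas9, where 16.5% were. DESeq2 called 5 in msx1 and 7.53% of all genes. Log2 fold changes ran from -1.26 to 2.53 in msx1 and from -2.03 to 1.43 in sox3. That these spread more widely than in the bounded groups is at least partly set by the rule and is a description.

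The called member was ENSGALG00000005401, ranked 4, on chromosome 2 (2612356 to 2663357, 5 exons, 1281 exonic bases). It had 37.2, 78.6 and 24.1 CPM in msx1 and 7.96 and 7.0 CPM in cas9, without overlap. In the sox3 libraries it had 17.7 and 22.4 CPM, in tfap2b 9.44, 2.35 and 6.28, in dko 3.65, 5.97 and 3.69, and in sox10 0.110, 0.302 and 0.195. Its level was thus highest in msx1, above cas9 in sox3 and near 0 in sox10. The log2 fold change was 2.53 (SE 0.61) in msx1 against cas9, with an adjusted p of 0.0363 by edgeR's quasi-likelihood test. In sox3 against cas9 it was 1.43 (SE 0.62), with an adjusted p of 0.557 by the same test. With replicate number added to the fit, the msx1 change was 2.58 and its adjusted p by that test 0.0513, no longer a call. The msx1 call was lost without msx1 replicate 1 or 2 (adjusted p 0.0965 and 0.204 by edgeR's quasi-likelihood test). The log2 fold change was then 2.65 and 1.96, and 0.895% and 1.18% of all genes were called. It was also lost without either cas9 library (log2 fold change 2.65 and 2.41) and with the close pairs summed (2.49). In each of these fits fewer of all genes were called than in the main fit. Over all alternatives the adjusted p was 0.000142 to 1.

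In the other comparisons without sox10 edgeR called 0 members. In dko against tfap2b, which differ by sox10_g1, edgeR called 0 members, where 0.0426% of all genes were called. DESeq2 called 1 member in this comparison and 1.41% of all genes. An unadjusted p under 0.05 in edgeR's fit was found for 4 members. The share of all genes at that cutoff is not given, so nothing is read from this count. The median log2 fold change was 0.07 for members and -0.02 for all genes. The widest difference was that of the member ranked 44, on chromosome 5 (21975146 to 22009083, 9 exons). It had 70.7, 63.0 and 89.5 CPM in dko and 34.04, 21.6 and 26.9 CPM in tfap2b, without overlap (log2 fold change 1.36, SE 0.33, adjusted p 0.164 by edgeR's quasi-likelihood test). Its sox10 libraries had 7.68, 6.24 and 13.3 CPM and its cas9 libraries 55.5 and 47.1 CPM. In sox3 against msx1, 0 members passed edgeR's test, where 0.433% of all genes were called. An unadjusted p under 0.05 was found for 1 member, again without a share of all genes. DESeq2 called 1 member (2.04% of all genes), and the 2 groups fitted alone also gave 1 (5.46%). Over all 6 comparisons without sox10 (tfap2b, dko, sox3 and msx1 against cas9, dko against tfap2b, and sox3 against msx1), edgeR called 61 of the 66 members in none, as it did 54.6% of all genes. The bounds on tfap2b and dko bear on that count, and nothing is read from it.

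The members also vary in how steady they were outside sox10. The highest of the 13 other libraries was 3.75 times the lowest for the median member, from 1.43 to 33.4 times, and 6 members stayed within 2-fold. The ratio of 1.43 was that of the member ranked 49, on chromosome 14 (156912 to 159921, 3 exons), with 2.41, 2.82 and 1.56 CPM in sox10 and 4.63 to 6.62 CPM in the 13 others. By column totals the group with the highest mean was msx1 for 28 members, cas9 for 22, dko for 10, and tfap2b and sox3 for 3 each. With TMM scaling the median ratio to cas9 was 0.994 for msx1 and 1.02 for dko, against 1.06 and 0.850 by column totals. The ranking was not made with TMM scaling or over all genes, and nothing is read from it. The SD of log2(CPM + 0.5) within the sox10 group was 0.291 for the median member and 0.582 for the median of 11586 autosomal genes with a mean of at least 1 CPM; the rule limits how far apart low sox10 levels can lie.

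Per kilobase of exon, most members were below the typical autosomal gene. The median was 0.912 CPM per kb in sox10 and 5.88 CPM per kb in cas9, against a cas9 median of 16.3 CPM per kb over all 10928 autosomal genes. Of the 66 members, 47 were below that median in cas9. The range in cas9 was 0.586 to 311 CPM per kb.

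Gene structure and position were not used by the rule, except that sex-linked and unplaced genes were left out. The median exonic length was 2085 bases for members and 2034 for the 10928 genes, and the median number of exons was 9 in both. The genomic span was 20468 bases in the median member and 13170 bases over all. Single-exon genes were 5 of the 66 (7.58%), against 2.95% of all. On chromosomes 1 to 5 lay 39 members (59.1%, against 47.1% of all genes), on 6 to 10 lay 7 (10.6%, against 17.0%) and on chromosomes 11 and above 20 (30.3%, against 35.9%). Chromosome 2 alone held 15 members (22.7%), with 9.28% of all genes. These shares are descriptions and were not tested.

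The members lay on 21 chromosomes, and 4 pairs of consecutive members were less than 1000000 bases apart. That number of pairs was not set against other sets of genes. The closest pair, on chromosome 2, was 40702 bases apart with 2 features between: the member ranked 31, described above, and the member ranked 61 (41324891 to 41345120, 11 exons), with 0.439, 0.906 and 0.0974 CPM in sox10 and 3.51 and 4.02 CPM in cas9. The next pair, on chromosome 9, was 48771 bases apart. It joins the member ranked 64 (2215876 to 2226714, 7 exons), at 39.9, 44.8 and 36.5 CPM in sox10 and 111 and 122 CPM in cas9, to the member ranked 53 (2275486 to 2312749, 11 exons, overlapping another feature), at 0, 0 and 0.195 CPM in sox10 and 1.50 and 3.30 CPM in cas9. Of the 132 nearest expressed neighbours of members, 9 (6.82%) were also lowest in all 3 sox10 libraries, against 6.01% of all 10928 genes, and 0 were members. The 10928 genes include the 66 members, which are lowest in sox10 by the rule, so these shares are not fully alike.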

How the data were processed

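Read counts per gene were deposited by the authors, not normalized, for 16 libraries. The submitters' processing notes name the build galGal5 and the tools DESeq2, featureCounts, Subread (1.4.5) and STAR (2.4.2a). Per the labels, SMART-Seq v4 and Nextera XT libraries were read as pairs of 40 bp from RNA with an integrity number above 6. Members and tests were chosen with earlier results of these data known. CPM (counts per 1000000) was computed on column totals for the rule and the levels. Tests used edgeR 4.0.16 (limma 3.58.1, R 4.3.3) with all 16 libraries in 1 fit, group as sole factor, TMM, the default expression filter and robust estimation, adjusted over all 14081 genes in each of 11 comparisons. Standard errors are the log2 fold change over the square root of F. The fit was also run on counts simulated with few shifted genes, in sox10 alone, unlike these data, and nothing is read from that run. Named by ID were the 2 highest-scoring members with at least 5 CPM in cas9 and no overlap. Called members without overlap were also named, in comparisons between groups that the rule did not set against each other. DESeq2 1.42.0, RLE scaling, no filter, a replicate block, summed close libraries, 2 groups alone and each library left out were alternatives. No symbols were matched, so marker lists were not run. Intervals and floors cover counting error only.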

Additional observations from a re-analysis of the deposited data

Results flagged for a closer look

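In 8 members all 3 dko libraries lay above both cas9 libraries while all 3 sox10 libraries lay below them, and in 1 member all 3 tfap2b libraries did so. They are listed because every library of one group moved opposite to every library of another under the same control. With TMM scaling the counts were 14 for dko, where 35% of all autosomal genes counted in the 13 other libraries lay above cas9, and 6 for tfap2b, where 32.9% did. The rule fixed the sox10 side, and the difference was not tested. By edgeR's fit 2 of the 8 were higher in dko than in cas9. By column totals the 8 (12.1% of members) compare with 28.7% of those genes for dko, and the 1 with 25.3% for tfap2b. By column totals all dko libraries lay below both cas9 libraries in 24 members, and all tfap2b libraries in 25. With TMM scaling these were 11 and 12. The shares of all genes below both cas9 libraries are not given here, and nothing is read from these counts.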

How the results depend on the processing

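The rule gave 50 genes with RLE size factors and 57 with TMM, of which 37 and 42 were among the 66. It gave 44 to 76 with other pseudocounts, 54 with at least 1 CPM elsewhere or with all 4 groups bounded, 72 with sex-linked and unplaced genes and 185 without the 2-fold bounds. Leaving out a library gave 63 to 235, with 140, 235 and 144 without sox10 replicate 1, 2 or 3 and 165 without tfap2b replicate 2. For the tests, percentages in brackets are the share of all genes called in the same fit, in either direction. The 2 groups fitted alone gave 27 of 64 members tested in sox10 against cas9 (33.6%) and 12 of 59 against dko (2.06%). Such fits gave 39 of 62 against msx1 (40.5%), 17 of 61 against sox3 (24.5%) and 0 of 59 against tfap2b (0%). Of 66 they gave 7 in dko (49.3%), 11 in msx1 (16.5%) and 9 in sox3 (32.3%) against cas9, and 1 in sox3 against msx1 (5.46%). With close pairs of libraries summed (both cas9, both sox3, and msx1 replicates 1 and 2, correlated at 0.982 to 0.989 over 9620 genes, against 0.863 to 0.963 for other pairs within a group), a lone sample is assumed to vary like the other groups. Then 36, 25, 28 and 2 members were called in sox10 against cas9, dko, sox3 and tfap2b, and 0 in dko and in msx1 against cas9. Against dko and tfap2b, which keep 3 libraries each, 2.00% and 0.0548% of all genes were called in this fit. The cas9 and sox3 groups are then 1 sample each, so nothing is read from the counts against them, including the 0 in dko and in msx1. The summed pairs still differed beyond sampling noise (mean chi-square per gene 8.66 to 16.1). DESeq2 called 63 in sox10 against tfap2b (9.47%), 5 in msx1 against cas9 (7.53%), and 1 each in dko against tfap2b (1.41%) and sox3 against msx1 (2.04%). The replicate block gave 0 calls in msx1 against cas9 (edgeR's quasi-likelihood adjusted p 0.0513 for ENSGALG00000005401), where 2.57% of all genes were called. It changed no other count by over 1.5 times. Deviations of same-numbered libraries of different groups correlated at -0.141 to 0.321, with 3 of 36 above 0.1. For different numbers the range was -0.3195 to 0.213, with 8 of 70 above 0.1. These values do not settle whether the numbers pair samples. Leaving out each library of the groups compared gave 48 to 59 members in sox10 against cas9, 43 to 55 against dko, 54 to 63 against msx1, 35 to 51 against sox3 and 22 to 48 against tfap2b, 1 to 4 in dko against cas9, 0 to 1 in msx1 and in tfap2b against cas9, and 0 in the other 3. The shares of all genes are not given with these ranges, and nothing is read from them. The cause of the differences between settings was not tested. At these depths, members under about 1 CPM rest on few counts.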
